A study of Mus musculus with 6 samples.

Results

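The leukocyte integrins described here are the products of 8 genes, the alpha subunits Itga4, Itgam, Itgal, Itgax and Itgae and the beta subunits Itgb1, Itgb2 and Itgb7. They were taken by gene symbol from the 32285 genes of the deposited matrices, and all 8 symbols were found. Their UMIs (unique molecular identifiers, 1 for each captured transcript) were summed for each library and each cell type gated by marker genes. The libraries hold mouse lung cells positively selected for CD45, the surface marker of blood-derived cells, 4 h after an intraperitoneal injection. The KO LPS group has 2 libraries from mice lacking Nos1, the neuronal nitric oxide synthase (labelled NOS1-/- and NOS1 KO) that received 10 mg/kg lipopolysaccharide (LPS), a bacterial cell wall component. The WT LPS group has 2 libraries from wild-type mice, whose strain the design text writes as C65BL6, given the same LPS dose. The KO vehicle and WT vehicle groups have 1 library each, from Nos1-lacking and wild-type mice given vehicle. The background strain of the KO mice, the age and sex of all mice, the number of animals behind a library, and whether the replicate libraries are separate animals are not stated in the labels. The p-values therefore cover no more than the spread of these particular libraries, and that spread may be technical. With 1 library in each vehicle group, the spread was estimated from the replicate LPS libraries alone. No spread between libraries of a vehicle group enters the p-values of LPS against vehicle or of the genotype difference in that response.

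An integrin is a pair of an alpha and a beta subunit that spans the cell membrane and holds a cell to its matrix or to another cell. Itga4 pairs with Itgb1 to form VLA-4, a receptor for Vcam1 and fibronectin, and with Itgb7 to form a receptor for Madcam1, the vascular address of the gut. Itgae pairs with Itgb7 and binds E-cadherin on epithelium. Itgb2 is the shared beta chain of Itgal (LFA-1), Itgam (Mac-1, CD11b) and Itgax (CD11c), which bind Icam1 and, for Mac-1, complement fragments and fibrinogen. In the lung these receptors carry blood leukocytes through rolling, arrest and crossing of the vessel wall, and CD11c is used as a surface marker of alveolar macrophages and dendritic cells. Transcript counts do not measure the activated form of the receptor at the surface.

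The 6 libraries held 55361477 to 115225284 UMIs each, and 61736 of 64428 barcodes passed the quality filter. Of these, 45021 fell into 1 marker-gated type, 11103 (18%) scored for more than 1 type and were left out, and 5612 (9.09%) had no type. No integrin gene was used as a marker. Sums were tested in the 11 types with at least 30 cells in every library, including endothelial and stromal cells, which came through the CD45 selection. Pairs of libraries shared 0.227% to 0.349% of the smaller library's barcodes. Nos1 had 4 and 4 UMIs in the KO LPS libraries, 0 and 1 in the WT LPS libraries, 5 in the KO vehicle and 2 in the WT vehicle library, so these 3'-end counts check nothing about the knockout. Transcripts of the X-inactivation gene Xist and of Y-linked genes split the libraries in a way that the labels do not give. The KO LPS libraries held 3667 and 2785 cells with Xist alone and 2508 and 1635 cells with Y-linked transcripts alone, so both held cells of both sexes. The WT LPS libraries held 5655 and 6125 cells with Xist alone against 4 and 1 with Y-linked transcripts alone. The KO vehicle library had 6801 against 1, whereas the WT vehicle library had 2 against 5091. The WT comparison of LPS with vehicle thus crosses sex, and values from cells with Xist alone are given beside the genotype results.

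All 8 genes have a position in GRCm38 (GENCODE M21). Itga4 lies at chr2:79255426-79333123 on the plus strand and overlaps Cerkl on the opposite strand. Cerkl had 0.501% to 3.33% as many UMIs as Itga4 in the 11 types tested. Itgal, Itgam and Itgax lie on the plus strand of chromosome 7 at chr7:127296260-127335138, chr7:128062640-128118491 and chr7:128129547-128150657. Itgae is at chr11:73090583-73147446 on the plus strand, overlapping Haspin on the opposite strand. Itgb1 is at chr8:128685654-128733200, Itgb2 at chr10:77530252-77565708 (both plus strand) and Itgb7 at chr15:102215995-102231944 on the minus strand. The promoters of Itgam and Itga4 are printed because their genes moved in opposite directions in most types after LPS. Each line gives 250 bases before to 50 bases after the gene start (RefSeq, GRCm38.p6), and capitals mark GAGGAA or its reverse complement TTCCTC, the core recognised by the myeloid factor PU.1.
Itgam, chr7:128062390-128062689, plus strand: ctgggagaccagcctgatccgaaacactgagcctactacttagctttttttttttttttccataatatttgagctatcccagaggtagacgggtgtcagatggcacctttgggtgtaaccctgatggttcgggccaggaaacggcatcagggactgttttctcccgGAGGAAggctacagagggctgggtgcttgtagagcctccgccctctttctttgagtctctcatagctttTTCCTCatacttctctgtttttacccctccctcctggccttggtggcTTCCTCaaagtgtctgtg
Itga4, chr2:79255176-79255475, plus strand: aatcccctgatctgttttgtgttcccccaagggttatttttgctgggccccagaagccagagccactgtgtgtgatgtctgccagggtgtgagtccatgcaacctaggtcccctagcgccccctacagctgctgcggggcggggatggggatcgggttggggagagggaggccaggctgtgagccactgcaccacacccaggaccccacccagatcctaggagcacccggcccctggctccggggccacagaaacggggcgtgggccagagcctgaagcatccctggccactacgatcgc
The Itgam window held 3 matches and the Itga4 window 0, counted over both strands, while 28.3% of 32851 promoter windows of the same length held at least 1. The Itgb1 and Itgb7 windows held 1 match each and the Itgax window 0. The table used held no window for Itgal, Itgae or Itgb2.

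Levels are UMIs per 1000000 UMIs (CPM) of a library's cells of 1 type, so a level can be compared between types but is not a comparison of 1 gene with another. In the LPS libraries Itga4 was highest in dendritic cells at 377 to 544 CPM, every neighbouring pair of types in the order overlapped, and neutrophils stood near the bottom at 14.9 to 46.7 CPM. In the vehicle libraries it was highest in nonclassical monocytes at 1032 to 1117 CPM, followed by NK cells at 796 to 985 CPM, classical monocytes at 514 to 619 CPM and neutrophils at 443 to 466 CPM, with no overlap between neighbours in that order. The vehicle libraries of B cells and dendritic cells overlapped, and endothelial cells had the lowest vehicle level, 41.8 to 43.8 CPM. Its partner Itgb1, the widely expressed beta chain, was highest in stromal cells (997 to 1038 CPM) and endothelial cells (837 to 983 CPM) among vehicle libraries and lowest in neutrophils and B cells, which overlapped (50.7 to 71.1 CPM and 52.3 to 64.8 CPM). Itgb7, the other partner, was highest in T cells (187 to 224 CPM), dendritic cells (162 to 195 CPM) and NK cells (149 to 189 CPM), each overlapping the next. Itgae was concentrated in dendritic cells (194 to 258 CPM) and T cells (27.6 to 38.8 CPM).

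The CD11 and CD18 genes were ordered differently. Nonclassical monocytes, which patrol the vessel wall, had the highest Itgal, at 901 to 1039 CPM in LPS and 996 to 1015 CPM in vehicle libraries, and the highest Itgb2, at 624 to 869 CPM in LPS and 699 to 732 CPM in vehicle libraries. The next type in vehicle libraries was NK cells for both, at 391 to 414 CPM and 577 to 641 CPM, with no overlap. Itgam was highest in vehicle neutrophils at 537 to 596 CPM, above nonclassical monocytes at 336 to 372 CPM, but the LPS libraries of these types overlapped. Itgax was highest in alveolar macrophages, at 271 to 324 CPM in LPS and 319 to 323 CPM in vehicle libraries, with no overlap with any other of the 11 types. Below it in vehicle libraries, dendritic cells at 108 to 114 CPM, nonclassical monocytes at 96.4 to 112 CPM and NK cells at 82.8 to 122 CPM overlapped, and in LPS libraries dendritic cells at 45.8 to 100.04 CPM overlapped NK cells at 30.9 to 67.3 CPM. Lowest of the 11 types in vehicle libraries were endothelial cells for Itgb2 and Itgal, at 19.99 to 24.2 CPM and 16.6 to 19.6 CPM.

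**Figure D1:**
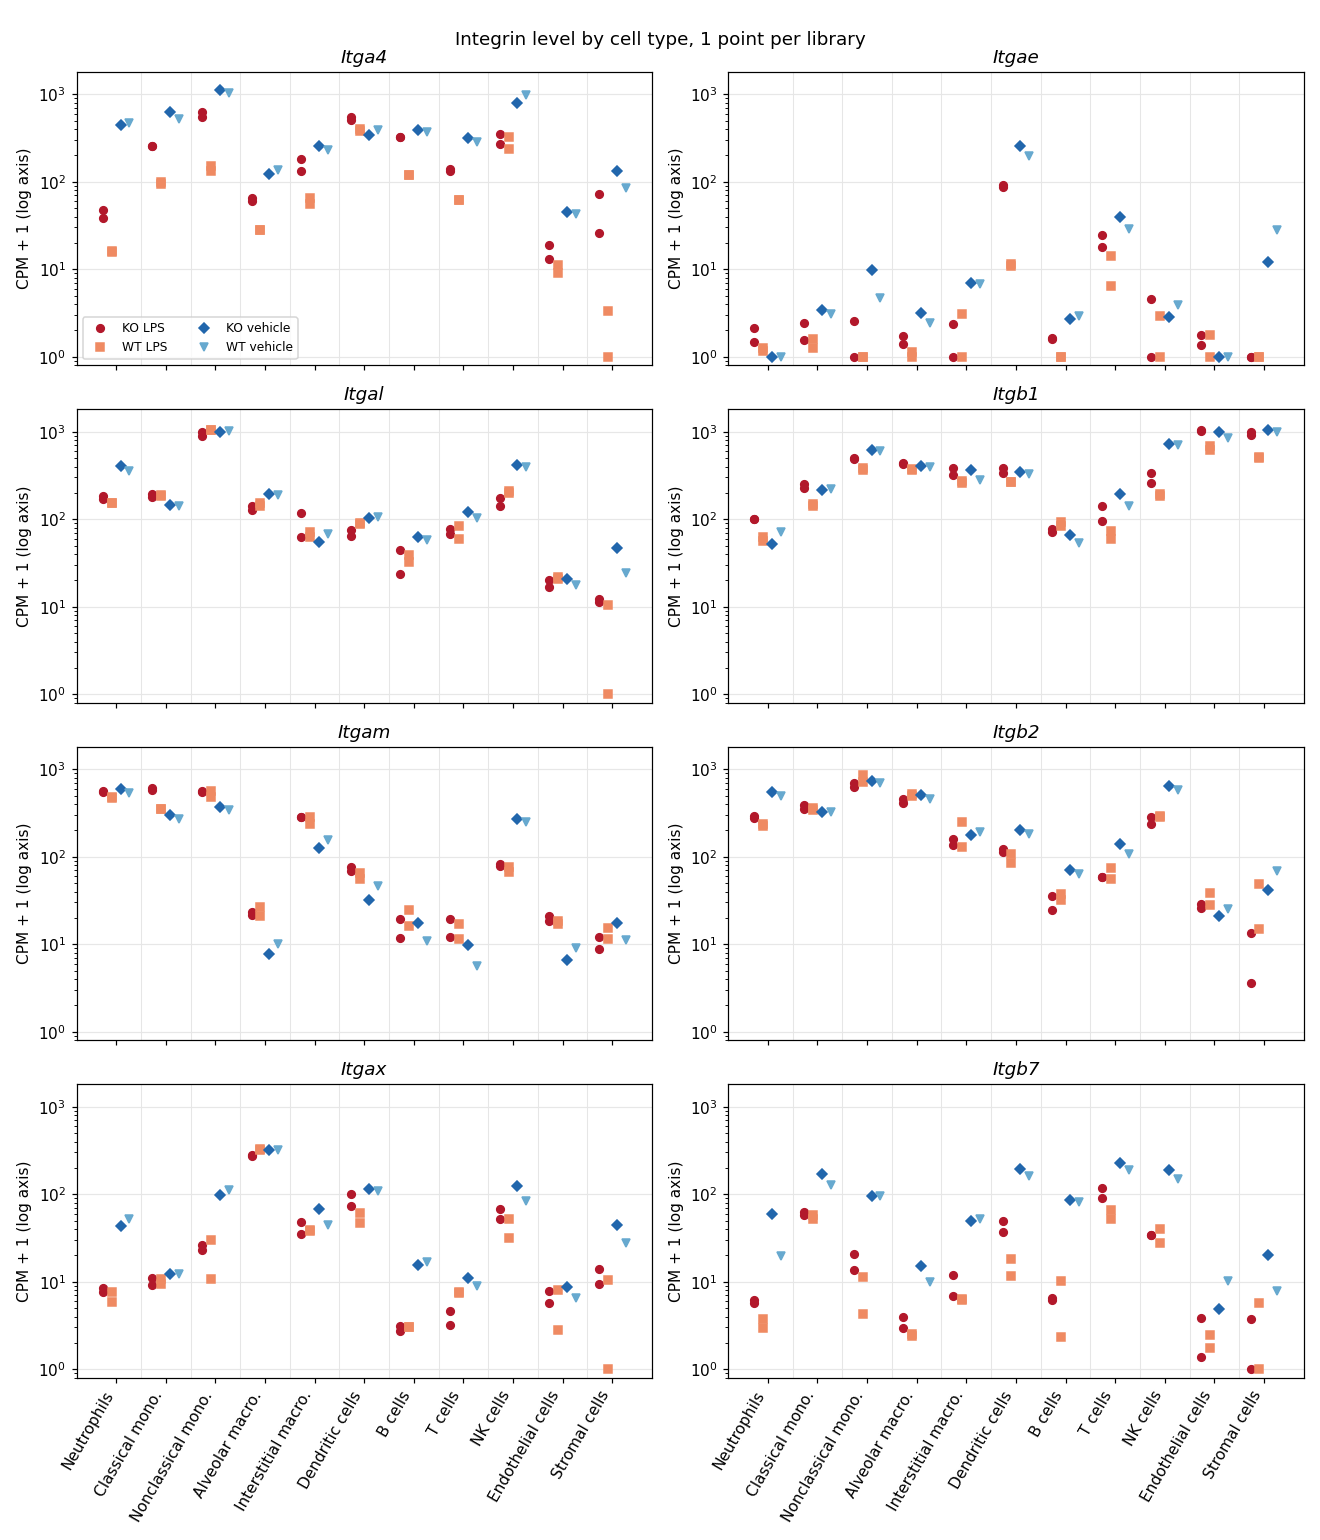
Levels of the 8 integrin genes in CPM plus 1 on a log axis, 1 panel per gene and 1 point per library, across 11 cell types, with the KO LPS, WT LPS, KO vehicle and WT vehicle libraries side by side. Itga4 points of the LPS libraries lie under the vehicle points in every type but dendritic cells, and Itgam points of monocytes and macrophages lie above them.

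The first comparison asks how 4 h of LPS changed integrin transcripts in each type, averaged over genotypes. Of 80 tested pairs of a gene and a type, 24 were higher and 37 lower in LPS libraries by edgeR's quasi-likelihood test (adjusted p under 0.05), against 26.8% higher and 23.5% lower of all 111618 tested pairs of a gene and a type. The share of members called lower, 46.25%, exceeded the background, and the share called higher, 30%, was near it. Itga4 fell in 10 of 11 types and Itgb7 in 9 of 10, while Itgam rose in 9 of 10, of which neutrophils turned to lower when libraries were scaled by total UMIs. Itgae fell in 3 of 5 types and Itgax in 4 of 11, with no rise for either. Itgb1 rose in 5 of 11 and fell in 2, with the rises in endothelial cells, dendritic cells and alveolar macrophages turning by total UMIs. Itgb2 rose in 5 of 11 and fell in 4, with the rises in neutrophils and alveolar macrophages turning, and Itgal rose in 4 of 11 and fell in 4, with the rise in nonclassical monocytes turning. Of 5356 genes tested in all 11 types, 196 (3.66%) were lower in 10 or more types, as Itga4 was. Fold changes are on the TMM scale, which is meant to set the bulk of genes in a type equal between libraries. In neutrophils the median of all genes still stood at 0.46 with LPS (log2). Scaled by total UMIs alone, the median of all genes moved down in every type, by 0.16 in alveolar macrophages to 1.17 in neutrophils on the log2 scale. On that scale 12 pairs were higher and 51 lower. Between cells with Xist alone, which sets KO LPS against KO vehicle, of the 24 higher calls 19 could be fitted, 16 kept their sign and 13 passed, and of the 37 lower calls 31 could be fitted, 31 kept their sign and 27 passed. Cells with Y-linked transcripts alone set KO LPS against WT vehicle, which crosses genotype, and gave 10 pairs higher and 14 lower of the 47 that could be fitted.

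**Figure D2:**
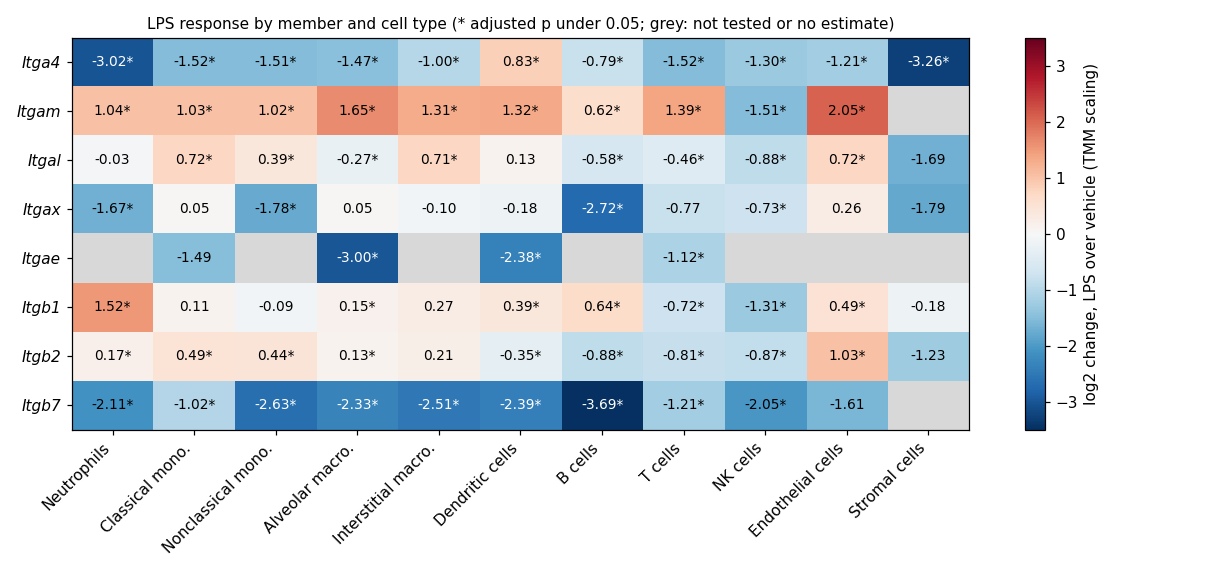
Heat map of the log2 difference between LPS and vehicle libraries (TMM scale, mean over genotypes) for the 8 integrin genes in 11 cell types, with a star where the edgeR adjusted p is under 0.05. Grey marks a gene that was not tested, and also Itgae in neutrophils, which was tested but had 39 UMIs with LPS and 0 with vehicle. The Itga4 and Itgb7 rows are lower almost throughout, with Itga4 in dendritic cells at 0.83 as the exception, and the Itgam row is higher except in NK cells.

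Itga4, the alpha chain of VLA-4, fell furthest among blood leukocytes in neutrophils. They had 37.1 and 46.7 CPM with KO LPS and 15.03 and 14.9 with WT LPS, against 443 with KO vehicle and 466 with WT vehicle, and all 4 LPS libraries lay below both vehicle libraries (log2 -3.02 ± 0.09, edgeR adjusted p = 4.28e-13). Classical monocytes, the inflammatory monocytes of blood, had 255 and 254 CPM with KO LPS and 93.5 and 98.3 with WT LPS, against 619 with KO vehicle and 514 with WT vehicle (log2 -1.52 ± 0.05, edgeR adjusted p = 9.72e-11). In nonclassical monocytes the level was 542 and 622 CPM with KO LPS and 132 and 149 with WT LPS, against 1117 with KO vehicle and 1032 with WT vehicle (log2 -1.51 ± 0.11, edgeR adjusted p = 1.26e-10). The LPS libraries were lower without overlap in both monocyte types, and within LPS the KO libraries were the higher ones. Itga4 also fell in T cells (-1.52 ± 0.12), alveolar macrophages (-1.47 ± 0.05), NK cells (-1.30 ± 0.11), interstitial macrophages (-0.996 ± 0.17), endothelial cells (-1.21 ± 0.19) and B cells (-0.79 ± 0.08, log2, edgeR adjusted p at most 0.000958). In B cells the KO libraries' own contrast did not pass (-0.12, edgeR adjusted p = 0.390). The endothelial value was 3.93 and did not pass when the lowest level of any type was subtracted as free RNA. Endothelial cells themselves held the lowest mean per cell in the KO LPS and vehicle libraries. The subtraction left them no Itga4 UMIs there, so that value gives no direction. In stromal cells the value of -3.26 ± 0.56 rested on 1 and 0 UMIs in the WT LPS libraries. Against the mean of the other types, the response of neutrophils differed by -1.73 ± 0.34 on the log2 scale (edgeR adjusted p = 8.40e-05) and that of dendritic cells by 2.50 ± 0.14 (edgeR adjusted p = 4.40e-18). Between KO LPS and KO vehicle cells with Xist alone, Itga4 differed by -1.99 ± 0.24 in neutrophils, -1.35 ± 0.09 in classical monocytes and -1.13 ± 0.08 in alveolar macrophages (log2, edgeR adjusted p at most 2.15e-05).

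The share of cells with an Itga4 UMI gave the same order in neutrophils. After each cell was thinned to 1000 UMIs, it was 2.06% and 2.21% with KO LPS and 0.857% and 1.04% with WT LPS, against 32.9% with KO vehicle and 33.6% with WT vehicle. Between 12 and 41 neutrophils of a library were too shallow to enter, and without thinning the shares were 11.1% and 10.4% with KO LPS and 6.88% and 5.23% with WT LPS, against 53.6% with KO vehicle and 44.5% with WT vehicle. Endothelial cells, the type with the lowest Itga4 level in KO LPS and vehicle libraries, gave thinned shares of 1.08% and 0.709% with KO LPS and 1.28% and 0.321% with WT LPS, against 2.67% with KO vehicle and 3.21% with WT vehicle. With WT LPS stromal cells were lower, at a mean of 1.18 CPM resting on 1 UMI. Endothelial cells there had 9.08 CPM and neutrophils 14.96 CPM, so endothelial cells do not mark the floor with WT LPS. The WT LPS neutrophil shares lay within the range of the LPS endothelial shares, and the KO LPS neutrophil shares above it. Median depth was 5430.0 and 4064 UMIs per neutrophil with KO LPS, 6114.5 and 4392 with WT LPS, 2199 with KO vehicle and 1478 with WT vehicle, and 3081 to 7851 per endothelial cell. Neutrophils with granule-protein transcripts (Camp, Ngp, Ltf, Cebpe), a younger stage, numbered 716 and 508 with KO LPS and 832 and 835 with WT LPS, against 0 with KO vehicle and 1 with WT vehicle. Among the other neutrophils alone Itga4 differed by -3.06 ± 0.08 (log2, edgeR adjusted p = 5.01e-16), so the fall was as large without the young cells.

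Itgb7, the beta chain of the gut-homing and epithelium-binding receptors, fell in 9 of 10 tested types, with all 4 LPS libraries below both vehicle libraries in each of the 9. In neutrophils the call ended and the sign turned with free RNA subtracted (2.91, edgeR adjusted p = 0.398). Neutrophils themselves held the lowest Itgb7 mean per cell in the WT vehicle library (0.0282 UMIs), so the subtraction left them none there. The largest fall was in B cells, which had 5.54 and 5.16 CPM with KO LPS and 9.20 and 1.36 with WT LPS, against 85.8 with KO vehicle and 79.6 with WT vehicle (log2 -3.69 ± 0.22, edgeR adjusted p = 1.34e-10). In T cells, where the gene was highest, the level was 88.6 and 118 CPM with KO LPS and 65.4 and 51.7 with WT LPS, against 224 with KO vehicle and 187 with WT vehicle (log2 -1.21 ± 0.13, edgeR adjusted p = 6.31e-09). Against the mean of the other types, the response of B cells differed by -1.71 ± 0.31 and those of T cells and classical monocytes by 1.01 ± 0.22 and 1.23 ± 0.22 (log2, edgeR adjusted p at most 0.000492). The other falls ran from -2.63 in nonclassical monocytes to -1.02 in classical monocytes (log2). In NK cells, for example, Itgb7 stood at 33.6 and 33.5 CPM with KO LPS and 38.6 and 27.04 with WT LPS, against 189 with KO vehicle and 149 with WT vehicle. Dendritic cells were among the 9, but in mature (Ccr7-type) dendritic cells alone the difference was -0.95 ± 0.40 (log2) and did not pass. In endothelial cells the value was -1.61 ± 0.66 and did not pass (edgeR adjusted p = 0.0544), at levels of 0.382 to 2.90 CPM with LPS and 3.83 to 9.06 CPM with vehicle.

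Itgae, the alpha chain that binds E-cadherin, fell in dendritic cells, which had 90.03 and 86.8 CPM with KO LPS and 10.5 and 9.87 with WT LPS, against 258 with KO vehicle and 194 with WT vehicle (log2 -2.38 ± 0.15, edgeR adjusted p = 1.00e-11). The make-up of the gated dendritic cells differed along with it. cDC1, the cross-presenting subset that carries Itgae, numbered 26 and 13 with KO LPS and 4 and 3 with WT LPS, against 72 with KO vehicle and 49 with WT vehicle. Mature (Ccr7-type) dendritic cells numbered 74 and 44 with KO LPS and 90 and 108 with WT LPS, against 30 with KO vehicle and 24 with WT vehicle. Within cDC1 the Itgae level was 299 and 307 CPM with KO LPS and 122 and 24.9 with WT LPS, against 364 with KO vehicle and 307 with WT vehicle, where the WT LPS values rest on 7 and 1 UMIs. Within mature dendritic cells Itgae was not lower: the UMIs were 36 and 18 with KO LPS and 9 and 13 with WT LPS, against 4 with KO vehicle and 0 with WT vehicle (3.69 ± 1.19, edgeR adjusted p = 0.0308). With only 4 and 0 UMIs in the vehicle libraries, a fall could not have shown inside this subset, so its absence there decides nothing. The part of the changed make-up was not tested further. In T cells Itgae was at 17.1 and 23.3 CPM with KO LPS and 5.36 and 13.3 with WT LPS, against 38.8 with KO vehicle and 27.6 with WT vehicle (log2 -1.12 ± 0.24, edgeR adjusted p = 0.000381), with the LPS libraries all lower. In CD8 T cells, the T cell subset in which the receptor marks tissue residence, the difference was -1.94 ± 0.36 (log2, edgeR adjusted p = 6.13e-06), a call that DESeq2 did not make (-1.93, adjusted p = 0.0620). In alveolar macrophages Itgae was 0 to 0.726 CPM with LPS and 1.46 to 2.16 CPM with vehicle (-3.00 ± 0.48).

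Dendritic cells were the exception for Itga4 as well, with 513 and 544 CPM with KO LPS and 394 and 377 with WT LPS, against 337 with KO vehicle and 388 with WT vehicle (log2 0.83 ± 0.10, edgeR adjusted p = 2.98e-07). Here the KO LPS libraries were highest and the lowest WT LPS library lay among the vehicle libraries. Among mature dendritic cells alone, an alternative chosen after the make-up was seen, the levels were 645 and 691 CPM with KO LPS and 416 and 379.6 with WT LPS, against 492 with KO vehicle and 668 with WT vehicle. The difference there was 0.23 ± 0.12 and did not pass (edgeR adjusted p = 0.177). Itgam in these mature cells rose, with 80 and 36 UMIs with KO LPS and 82 and 90 with WT LPS, against 1 with KO vehicle and 3 with WT vehicle (log2 3.60 ± 0.45, edgeR adjusted p = 1.74e-05). Neutrophil markers moved with it: over all dendritic cells their summed level was 7632 and 9014 CPM in KO LPS and 7272 and 10193 in WT LPS, against 153 in KO vehicle and 49.7 in WT vehicle. At the Itgam level of the same library's neutrophils, that much neutrophil RNA would carry 21.8 and 25.9 CPM of Itgam in KO LPS and 17.5 and 25.5 in WT LPS, against 0.670 in KO vehicle and 0.229 in WT vehicle. The measured Itgam level of all dendritic cells was 76.3 and 67.8 CPM in KO LPS and 54.3 and 64.9 in WT LPS, against 31.4 in KO vehicle and 45.1 in WT vehicle, and the part of neutrophil RNA in the rise was not tested. Itgb2 fell over all dendritic cells (log2 -0.35 ± 0.13, edgeR adjusted p = 0.0333), a call lost without KO LPS replicate 1 (-0.32) or WT LPS replicate 2 (-0.28), but rose in the mature cells alone (1.00 ± 0.23, edgeR adjusted p = 0.00414).

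Itgb1, the beta chain of VLA-4, moved in both directions. NK cells, cytotoxic innate lymphocytes, had 334 and 260.3 CPM with KO LPS and 194 and 183 with WT LPS, against 731 with KO vehicle and 708 with WT vehicle (log2 -1.31 ± 0.10, edgeR adjusted p = 1.74e-10), so the LPS libraries were all lower. T cells fell by 0.72 on the log2 scale (edgeR adjusted p = 9.75e-05). Neutrophils had 101 and 98.4 CPM with KO LPS and 61.5 and 55.7 with WT LPS, against 50.7 with KO vehicle and 71.1 with WT vehicle, values that overlap in CPM. On the TMM scale they rose (log2 1.52 ± 0.11, edgeR adjusted p = 1.90e-08), and by total UMIs the rise was 0.35 (edgeR adjusted p = 0.0287). B cells rose by 0.64, endothelial cells by 0.49, dendritic cells by 0.39 and alveolar macrophages by 0.15 (log2, edgeR adjusted p at most 0.00582). The B cell value turned to -5.13 when free RNA was subtracted and was -0.53 in cells with Y-linked transcripts alone. B cells themselves held the lowest Itgb1 mean per cell in KO LPS (0.235 UMIs), so the subtraction left them none there. Scaled by total UMIs the endothelial, dendritic and macrophage values turned negative, at -0.15, -0.13 and -0.01. The responses of neutrophils and B cells exceeded the mean of the other types by 1.54 ± 0.16 and 0.57 ± 0.12, and those of NK and T cells differed from it by -1.57 ± 0.10 and -0.93 ± 0.12 (log2, edgeR adjusted p at most 0.000126).

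Itgam, the alpha chain of Mac-1, rose across the mononuclear phagocytes. Classical monocytes had 616 and 580.2 CPM with KO LPS and 348 and 353 with WT LPS, against 299.9 with KO vehicle and 267 with WT vehicle (log2 1.03 ± 0.05, edgeR adjusted p = 7.09e-09), and nonclassical monocytes 542 and 561 CPM with KO LPS and 569.6 and 474 with WT LPS, against 372 with KO vehicle and 336 with WT vehicle (log2 1.02 ± 0.10, edgeR adjusted p = 5.27e-08). Interstitial macrophages of the lung tissue had 282 and 282 CPM with KO LPS and 239 and 285 with WT LPS, against 125 with KO vehicle and 156 with WT vehicle (log2 1.31 ± 0.16, edgeR adjusted p = 0.000108). In alveolar macrophages, the phagocytes that live in the air sacs, a low level was higher with LPS, at 22.1 and 20.7 CPM with KO LPS and 20.1 and 25.5 with WT LPS, against 6.74 with KO vehicle and 9.16 with WT vehicle (log2 1.65 ± 0.11, edgeR adjusted p = 3.08e-09). The neutrophil markers in alveolar macrophages summed to 2338 and 1940.4 CPM in KO LPS and 2314 and 3228 in WT LPS, against 257 in KO vehicle and 315 in WT vehicle. At the Itgam level of the same library's neutrophils they would carry 6.69 and 5.57 CPM in KO LPS and 5.58 and 8.06 in WT LPS, against 1.13 in KO vehicle and 1.45 in WT vehicle. The carried level was 22.1 to 25.6 CPM with LPS and 3.43 to 3.46 CPM with vehicle in classical monocytes, 30.3 to 57.9 and 8.79 to 19.5 CPM in nonclassical monocytes, and 4.54 to 12.3 and 0.342 to 3.498 CPM in interstitial macrophages, and its part in the 4 rises was not tested. All 4 LPS libraries lay above both vehicle libraries in these 4 types, whichever genotype they came from. NK cells went the other way, with 78.1 and 80.9 CPM with KO LPS and 66.1 and 74.4 with WT LPS, against 271 with KO vehicle and 248 with WT vehicle (log2 -1.51 ± 0.13, edgeR adjusted p = 5.25e-10), and their response differed from the mean of the other types by -2.68 ± 0.15 on the log2 scale (edgeR adjusted p = 5.16e-18).

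Low Itgam levels in non-phagocytes rose too, beside RNA of neutrophils. Endothelial cells had 20.05 and 17.4 CPM with KO LPS and 16.2 and 17.5 with WT LPS, against 5.53 with KO vehicle and 8.05 with WT vehicle (log2 2.05 ± 0.23, edgeR adjusted p = 2.15e-05). The summed level of the 9 neutrophil markers in these cells was 2765 and 2308 CPM in KO LPS, 5744 and 2030.1 in WT LPS, 130.2 in KO vehicle and 294 in WT vehicle. That much neutrophil RNA, at the Itgam level of the same library's neutrophils, would carry 7.92 and 6.63 CPM in KO LPS, 13.9 and 5.07 in WT LPS, 0.572 in KO vehicle and 1.36 in WT vehicle. With free RNA subtracted the difference was 3.07 (edgeR adjusted p = 0.000570). In the KO vehicle library T cells held the lowest mean, 0.0399 Itgam UMIs per cell, beside 0.0480 in endothelial cells. The subtraction thus left endothelial cells few UMIs there, and the larger value does not measure the size of the rise. The part of neutrophil RNA in the endothelial and T cell rises was not tested. T cells had 18.7 and 11.1 CPM with KO LPS and 16.1 and 10.6 with WT LPS, against 8.78 with KO vehicle and 4.59 with WT vehicle (log2 1.39 ± 0.34, edgeR adjusted p = 0.00172), with a carried level of 6.07 and 1.88 CPM in KO LPS, 6.87 and 5.26 in WT LPS, 2.65 in KO vehicle and 1.63 in WT vehicle. In B cells the value of 0.62 ± 0.23 (edgeR adjusted p = 0.0242) lost its call without KO LPS replicate 1 (0.38) or WT LPS replicate 1 (0.43), and it was -0.40 ± 0.34 between cells with Xist alone and -3.86 with free RNA subtracted. B cells themselves held the lowest Itgam mean per cell in KO LPS (0.0486 UMIs), so the subtraction left them none there. The T cell call ended without KO LPS replicate 1 (1.12).

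In neutrophils the direction for Itgam and Itgb2 depended on the scale. In CPM, Itgam was 561 and 549 CPM with KO LPS and 471 and 479 with WT LPS, against 596 with KO vehicle and 537 with WT vehicle, so the vehicle libraries lay within or above the LPS range. On the TMM scale it was higher with LPS (log2 1.04 ± 0.05, edgeR adjusted p = 3.58e-11), while by total UMIs it was -0.14 (edgeR adjusted p = 0.0199). Itgb2 was 292 and 279 CPM with KO LPS and 235 and 223 with WT LPS, against 544 with KO vehicle and 489 with WT vehicle, at 0.17 ± 0.05 on the TMM scale (edgeR adjusted p = 0.0173) and -1.01 by total UMIs. The Itgb2 call ended without KO LPS replicate 1 (0.12) or WT LPS replicate 1 (0.13) and was -0.02 ± 0.16 between cells with Xist alone. The 20 most abundant genes took 40.0% to 42.9% of neutrophil UMIs in LPS libraries, 30.2% in the KO vehicle and 29.5% in the WT vehicle library, and the median of all 12340 genes was 0.46 on the TMM scale. Per cell, Itgam had 4.12 and 3.06 UMIs with KO LPS and 3.93 and 2.84 with WT LPS, against 1.33 with KO vehicle and 0.805 with WT vehicle, in cells that held more UMIs of all kinds after LPS. Itga4 was lower in LPS neutrophils on all of these scales (-3.02 ± 0.09 and -4.19 on the TMM and total-UMI scales).

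**Figure D3:**
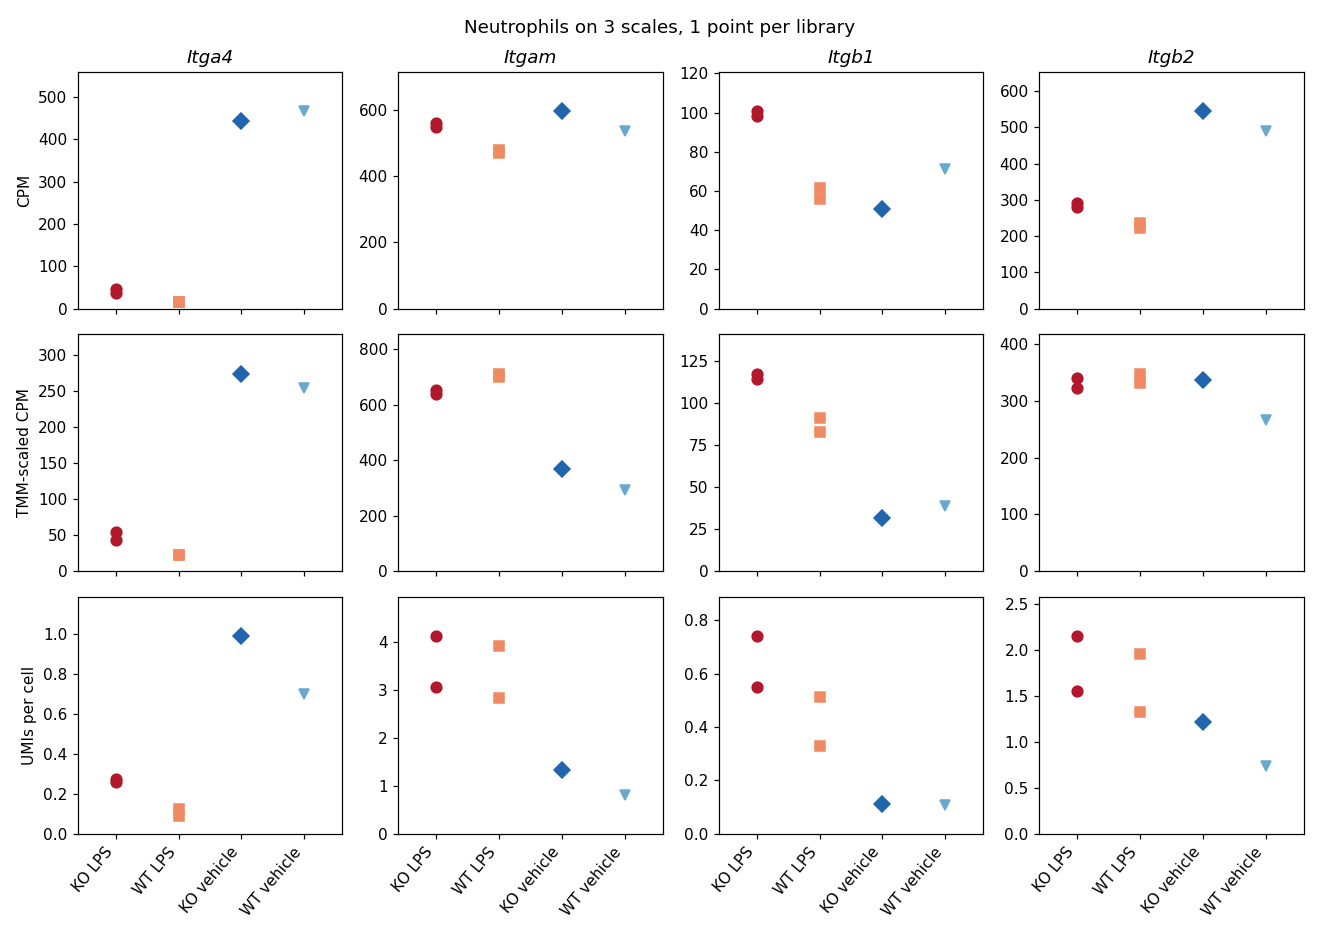
Itga4, Itgam, Itgb1 and Itgb2 in neutrophils, 1 point per library, drawn as CPM (top row), as CPM scaled by TMM factors (middle row) and as UMIs per cell (bottom row), for the KO LPS, WT LPS, KO vehicle and WT vehicle groups. Itga4 is lower in the LPS libraries in all rows, whereas Itgam and Itgb2 change their order between rows.

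Itgal and Itgb2, the 2 chains of LFA-1, were both higher with LPS in monocytes and both lower in lymphocytes. In classical monocytes Itgal was 191 and 178 CPM with KO LPS and 186 and 183 with WT LPS, against 145 with KO vehicle and 139 with WT vehicle (log2 0.72 ± 0.06, edgeR adjusted p = 1.04e-06) and Itgb2 was 385 and 346 CPM with KO LPS and 362 and 344 with WT LPS, against 327 with KO vehicle and 319 with WT vehicle (log2 0.49 ± 0.06, edgeR adjusted p = 1.96e-05). Both stayed higher by total UMIs in classical monocytes (0.38 and 0.15), while in nonclassical monocytes rises of 0.39 ± 0.09 and 0.44 ± 0.10 became -0.03 and 0.02. In lymphocytes both chains were lower on either scale. NK cells had Itgal at 173 and 140.0 CPM with KO LPS and 209 and 198 with WT LPS, against 414 with KO vehicle and 391 with WT vehicle (log2 -0.88 ± 0.11, edgeR adjusted p = 4.64e-07). Their Itgb2 was 284 and 235 CPM with KO LPS and 291 and 282 with WT LPS, against 641 with KO vehicle and 577 with WT vehicle (log2 -0.87 ± 0.10, edgeR adjusted p = 1.45e-07). B cells fell by 0.58 and 0.88 and T cells by 0.46 and 0.81 for Itgal and Itgb2 on the log2 scale (edgeR adjusted p at most 0.00819). Interstitial macrophages gave Itgal at 0.71 ± 0.26 (edgeR adjusted p = 0.0494), a call lost without KO LPS replicate 1 (0.43) or WT LPS replicate 1 (0.67). The nonclassical monocyte calls ended without WT LPS replicate 1 (0.38) or WT LPS replicate 2 (0.37) for Itgal and without WT LPS replicate 1 (0.36) for Itgb2, and the T cell call of Itgal without WT LPS replicate 1 (-0.33). Endothelial Itgal (0.72 ± 0.18) and Itgb2 (1.03 ± 0.18) were called higher on the TMM scale and did not pass by total UMIs (0.07 and 0.39). In alveolar macrophages Itgal fell by 0.27 and Itgb2 was at 0.13 ± 0.05, or -0.03 by total UMIs, a call lost without KO LPS replicate 1 (0.10) or WT LPS replicate 1 (0.11).

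Itgax, the CD11c chain, did not pass the test in alveolar macrophages, its highest type. The libraries had 282 and 271 CPM with KO LPS and 324 and 316 with WT LPS, against 323 with KO vehicle and 319 with WT vehicle, and the difference was 0.05 ± 0.04 (edgeR adjusted p = 0.301). It turned and passed as lower when scaled by total UMIs (-0.11, edgeR adjusted p = 0.0332) and in cells with Y-linked transcripts alone (-0.33, edgeR adjusted p = 0.000820). It fell in nonclassical monocytes, with 25.1 and 22.1 CPM with KO LPS and 29.3 and 9.75 with WT LPS, against 96.4 with KO vehicle and 112 with WT vehicle (log2 -1.78 ± 0.22, edgeR adjusted p = 7.79e-07), and in neutrophils, with 7.44 and 6.67 CPM with KO LPS and 6.62 and 4.92 with WT LPS, against 42.3 with KO vehicle and 51.00 with WT vehicle (log2 -1.67 ± 0.21, edgeR adjusted p = 6.95e-06). B cells had 2.15 and 1.72 CPM with KO LPS and 2.05 and 2.04 with WT LPS, against 14.5 with KO vehicle and 16.00 with WT vehicle (log2 -2.72 ± 0.31, edgeR adjusted p = 9.03e-07), and NK cells differed by -0.73 ± 0.17 (edgeR adjusted p = 0.00144). The LPS libraries were all lower in nonclassical monocytes, neutrophils and B cells. The response of alveolar macrophages was above the mean of the other types by 1.00 ± 0.12 (log2, edgeR adjusted p = 5.89e-09). Over the 7 genes in the joint fit of all types, 20 pairs lay above and 14 below the mean of the other types, of 77, against 8.42% and 8.54% of all tested pairs.

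The second comparison sets KO LPS against WT LPS libraries, 2 against 2. Of 80 tested pairs, 21 were higher and 6 lower in KO LPS (edgeR adjusted p under 0.05), against 7.73% higher and 9.05% lower of all tested pairs, so the share called higher, 26.25%, exceeded the background. Itga4 was higher in 8 of 11 types and Itgb1 in 6 of 11, with no type lower for either. Of the 5356 genes tested in all types, 13 (0.243%) were higher in KO LPS in 8 or more types. Itgb7 was higher in 3 types, Itgae in 2 and Itgax in 1, and Itgam was higher in 1 and lower in 1. The other calls were lower: Itgal in 3 types, Itgax in 1 and Itgb2 in 1. Without KO LPS replicate 2 the lower calls numbered 3, and DESeq2 called 12 pairs higher and 3 lower. Restricted to cells with Xist alone, 12 pairs were higher and 3 lower. Of the 21 pairs called higher, 17 could be fitted there, 16 kept their sign and 10 passed.

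VLA-4 alpha chain transcripts were higher with KO LPS in monocytes, macrophages, B cells, T cells and neutrophils. Nonclassical monocytes had 542 and 622 CPM in KO LPS and 132 and 149 CPM in WT LPS (log2 1.92 ± 0.16, edgeR adjusted p = 2.27e-07). B cells had 321 and 324 CPM in KO LPS and 117 and 118 CPM in WT LPS (log2 1.37 ± 0.11, edgeR adjusted p = 5.19e-07). The KO libraries lay above the WT libraries without overlap in each. Classical monocytes had 255 and 254 CPM in KO LPS and 93.5 and 98.3 CPM in WT LPS (log2 1.24 ± 0.05, edgeR adjusted p = 3.95e-08), and alveolar macrophages 64.2 and 59.4 CPM in KO LPS and 27.1 and 26.8 CPM in WT LPS (log2 1.11 ± 0.06, edgeR adjusted p = 1.21e-08). T cells (1.09 ± 0.17), interstitial macrophages (1.26 ± 0.22) and neutrophils (1.11 ± 0.09) gave values of like size. The call ended in nonclassical monocytes without WT LPS replicate 1 (1.80) or WT LPS replicate 2 (2.01), and in interstitial macrophages without KO LPS replicate 1 (1.48) or WT LPS replicate 2 (1.18). In neutrophils it ended when the lowest level of any type was subtracted as free RNA (0.03, edgeR adjusted p = 0.997), and likewise in T cells (0.84, edgeR adjusted p = 0.218). The lowest mean was 0.0128 Itga4 UMIs per cell in WT LPS (stromal cells) and 0.150 in KO LPS (endothelial cells). Neutrophils had 0.107 in WT LPS and 0.266 in KO LPS. The subtraction thus took a larger part from KO than from WT neutrophils, and the part of free RNA in the difference was not tested. In stromal cells the KO LPS libraries held 45 Itga4 UMIs and the WT LPS libraries 1, a ratio of 28.9 with a counting interval of 4.92 to 1165, and the call ended without either KO library.

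The genotype difference of Itga4 was also present between cells with Xist alone in the 5 of its 8 called types that could be fitted there. It was 0.81 ± 0.08 in alveolar macrophages, 1.28 ± 0.12 in B cells, 0.92 ± 0.07 in classical monocytes, 0.90 ± 0.13 in neutrophils and 1.15 ± 0.24 in T cells (log2, edgeR adjusted p at most 0.00490). Nonclassical monocytes, interstitial macrophages and stromal cells had too few cells with Xist alone for a fit. Within the KO LPS libraries, cells with Y-linked transcripts alone had more Itga4 than cells with Xist alone in alveolar macrophages, at 70.7 and 74.8 CPM against 48.9 and 43.9 CPM, and in classical monocytes, at 282 and 289 against 188 and 201 CPM. The all-cell values of those types therefore sit above the values from Xist cells.

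Itgb1, the partner chain, was higher with KO LPS in classical monocytes, at 249 and 229 CPM in KO LPS and 149 and 141 CPM in WT LPS (log2 0.55 ± 0.05, edgeR adjusted p = 1.25e-05), and in endothelial cells, at 1009 and 1032 CPM in KO LPS and 612 and 692 CPM in WT LPS (log2 0.48 ± 0.07, edgeR adjusted p = 0.00124). Neutrophils had 101 and 98.4 CPM in KO LPS and 61.5 and 55.7 CPM in WT LPS (log2 0.41 ± 0.05, edgeR adjusted p = 3.69e-05). The KO libraries were the higher ones without overlap in these 3 types. NK cells, stromal cells and T cells gave 0.65 ± 0.14, 0.82 ± 0.19 and 0.75 ± 0.20 (log2, edgeR adjusted p = 0.00821, 0.0485 and 0.0405). The NK call ended without KO LPS replicate 1 (0.48), the stromal call without KO LPS replicate 1 (0.81), KO LPS replicate 2 (0.85) or WT LPS replicate 1 (0.81) and the T cell call without KO LPS replicate 2 (0.48), WT LPS replicate 1 (0.61) or WT LPS replicate 2 (0.91). Between cells with Xist alone the differences were 0.55 ± 0.07 in classical monocytes, 0.80 ± 0.09 in endothelial cells and 0.47 ± 0.08 in neutrophils (log2, edgeR adjusted p at most 0.00120).

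**Figure D4:**
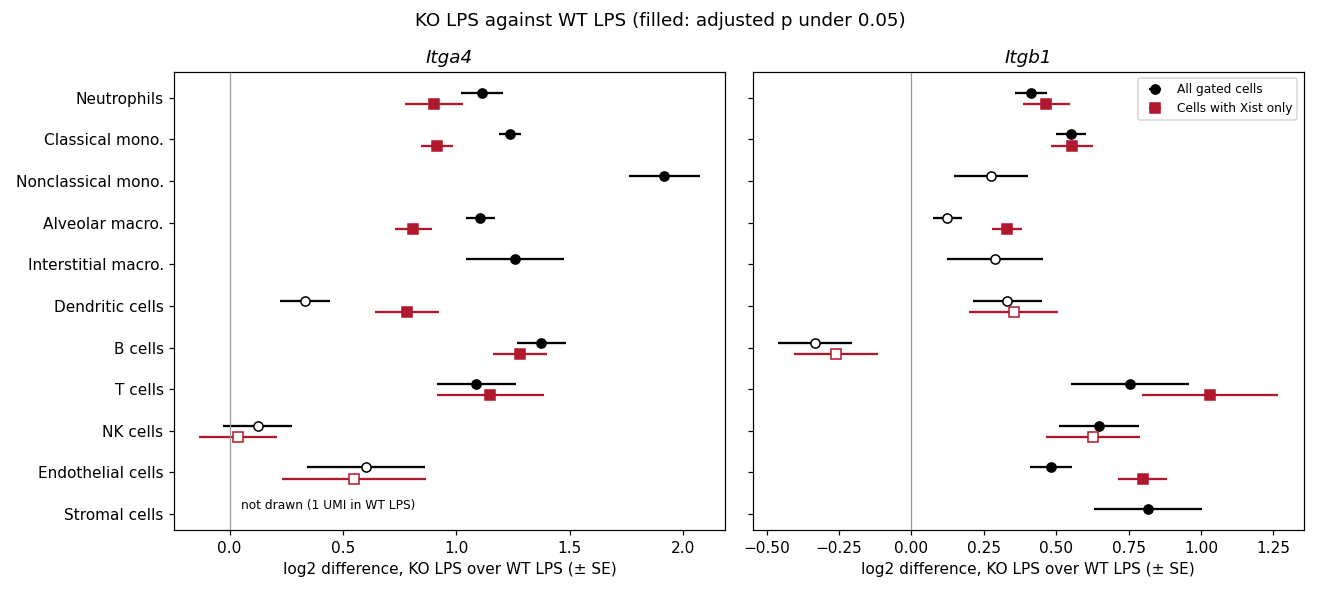
Log2 difference between KO LPS and WT LPS libraries for Itga4 and Itgb1 by cell type, with bars of 1 standard error, for all cells (black) and for cells with Xist alone (red), filled where the edgeR adjusted p is under 0.05. Itga4 in stromal cells, which rests on 1 UMI in WT LPS, is not drawn. The drawn Itga4 values of B cells are 1.37 for all cells and 1.28 for cells with Xist alone.

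Itgam in classical monocytes was higher with KO LPS over all cells, at 616 and 580.2 CPM in KO LPS and 348 and 353 CPM in WT LPS (log2 0.60 ± 0.05, edgeR adjusted p = 1.99e-06). Between cells with Xist alone it did not pass and had the other sign (-0.14 ± 0.06, edgeR adjusted p = 0.153). Within the KO LPS libraries, classical monocytes with Y-linked transcripts alone had 799 and 754 CPM and those with Xist alone 342 and 323 CPM. Itgax in alveolar macrophages was called lower over all cells, at -0.30 ± 0.05, and did not pass between cells with Xist alone, at -0.06 ± 0.05 (edgeR adjusted p = 0.000219 and 0.453). Itgb2, the shared CD18 chain, was lower in KO LPS alveolar macrophages in both sets of cells, at -0.32 ± 0.06 and -0.24 ± 0.06 (edgeR adjusted p = 0.000476 and 0.0106). Its levels there were 455 and 411 CPM in KO LPS and 522 and 488 CPM in WT LPS, which do not overlap.

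**Figure D5:**
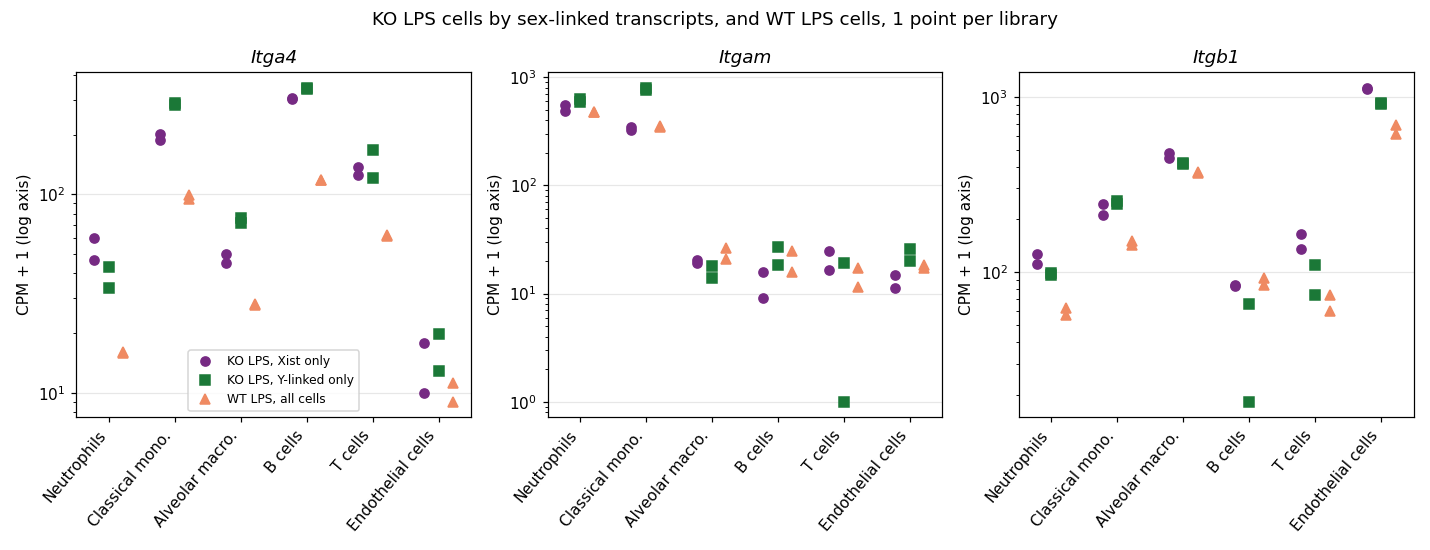
Itga4, Itgam and Itgb1 levels in CPM plus 1 on a log axis in 6 cell types, 1 point per library, for KO LPS cells with Xist alone, KO LPS cells with Y-linked transcripts alone and all WT LPS cells. In classical monocytes the Itgam points of cells with Y-linked transcripts lie at 754 and 799 CPM, above the 323 and 342 CPM of KO LPS cells with Xist alone.

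Of the remaining genes, Itgae gave the largest genotype difference. It was higher in KO LPS dendritic cells, at 90.03 and 86.8 CPM in KO LPS and 10.5 and 9.87 CPM in WT LPS (log2 2.99 ± 0.23, edgeR adjusted p = 2.86e-08), and in mature dendritic cells alone the difference was 2.01 ± 0.37 (edgeR adjusted p = 0.00913). The cDC1 counts given above differed between these libraries in the same direction. Itgae in alveolar macrophages rested on 16 UMIs in KO LPS and 2 in WT LPS, a ratio of 7.64 with a counting interval of 1.80 to 68.5, and the call ended without KO LPS replicate 2 (2.35) or WT LPS replicate 2 (1.97). Itgb7 was higher in dendritic cells (1.42 ± 0.28), neutrophils (0.73 ± 0.18) and T cells (0.71 ± 0.20), and passed in none of them between cells with Xist alone (0.92 ± 0.36, 0.04 ± 0.37 and 0.58 ± 0.25). In mature dendritic cells alone Itgb7 differed by 0.72 ± 0.38 and did not pass. With KO vehicle and WT vehicle Itgb7 stood at 240 and 198 CPM in cDC1, and at 44.4 and 33.2 CPM in mature dendritic cells. The part of the changed make-up in the dendritic cell difference was not tested. The neutrophil call of Itgb7 ended without WT LPS replicate 1 (0.49) and the T cell call without KO LPS replicate 2 (0.52), WT LPS replicate 1 (0.91) or WT LPS replicate 2 (0.57). Itgax was at 0.64 ± 0.19 in dendritic cells (edgeR adjusted p = 0.0420), a call lost without KO LPS replicate 1 (0.35) or WT LPS replicate 2 (0.48). In mature dendritic cells alone it was at 0.50 ± 0.21 and did not pass. Itgal was lower in alveolar macrophages (-0.24 ± 0.06), classical monocytes (-0.17 ± 0.05, or 0.00 by total UMIs) and neutrophils (-0.15 ± 0.04, or 0.20 by total UMIs). Itgam in neutrophils was -0.12 ± 0.04 on the TMM scale and 0.23 by total UMIs. These 4 calls ended without WT LPS replicate 1 (-0.18) in alveolar macrophages, without KO LPS replicate 2 (-0.14), WT LPS replicate 1 (-0.15) or WT LPS replicate 2 (-0.18) in classical monocytes, without KO LPS replicate 2 (-0.11), WT LPS replicate 1 (-0.15) or WT LPS replicate 2 (-0.15) for Itgal in neutrophils and without KO LPS replicate 2 (-0.12), WT LPS replicate 1 (-0.14) or WT LPS replicate 2 (-0.11) for Itgam in neutrophils.

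The third comparison tests whether the LPS response differed between genotypes. Of 80 pairs, 9 were higher and 4 lower in KO than in WT by edgeR (adjusted p under 0.05), against 2.13% and 2.54% of all tested pairs. The higher calls numbered 5 without WT LPS replicate 2, and the lower calls 7 without WT LPS replicate 2 or without KO LPS replicate 1. Itga4 gave 6 of the 9. Its LPS response in alveolar macrophages was -0.84 in KO and -2.11 in WT, in B cells -0.12 in KO and -1.45 in WT, and in classical monocytes -1.03 in KO and -2.01 in WT (log2). In nonclassical monocytes it was -0.61 in KO and -2.41 in WT, in T cells -0.98 in KO and -2.06 in WT, and in neutrophils -2.51 in KO and -3.52 in WT. The fall of Itga4 was thus smaller in KO in these 6 types, with differences of 0.98 to 1.80 (edgeR adjusted p at most 0.0103). The WT vehicle and WT LPS libraries differ in sex marks, so genotype and sex cannot be told apart in this comparison, and no fit within 1 sex was possible. Itgb1 in classical monocytes (0.57 ± 0.12), Itgam in classical monocytes (0.45 ± 0.10) and Itgae in dendritic cells (2.57 ± 0.32) were the other higher calls. The lower ones were Itgb2 and Itgax in alveolar macrophages (-0.43 ± 0.10 and -0.29 ± 0.08) and, in neutrophils on the TMM scale, Itgal and Itgam (-0.54 ± 0.12 and -0.45 ± 0.09, or -0.01 and 0.08 by total UMIs). Calls ended without WT LPS replicate 1 (1.68) or WT LPS replicate 2 (1.90) for Itga4 in nonclassical monocytes, without WT LPS replicate 1 (1.09) or WT LPS replicate 2 (1.08) for Itga4 in T cells and without WT LPS replicate 1 (0.44) or WT LPS replicate 2 (0.46) for Itgam in classical monocytes. They also ended without KO LPS replicate 2 (-0.29) or WT LPS replicate 1 (-0.28) for Itgax in alveolar macrophages and without WT LPS replicate 2 (0.53) for Itgb1 in classical monocytes.

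Without LPS, KO and WT were compared as 1 library against 1, with no replicate and no test. Of 88 pairs of a gene and a type, 69 had at least 20 UMIs in the 2 vehicle libraries together, and their ratios of KO vehicle to WT vehicle ran from 0.695 to 1.69 with a median of 1.08. The ratio passed 1.5 in 4 pairs. These were Itgam in B cells at 1.69 (95% counting interval 1.24 to 2.32), Itgb7 in alveolar macrophages at 1.58 (1.29 to 1.94), Itga4 in stromal cells at 1.56 (0.941 to 2.64) and Itgax in interstitial macrophages at 1.51 (0.896 to 2.62). Itga4 was close between genotypes in some leukocyte types: 1117 with KO vehicle and 1032 CPM with WT vehicle in nonclassical monocytes, and 121 with KO vehicle and 134 CPM with WT vehicle in alveolar macrophages. It lay further apart in classical monocytes, at 619 with KO vehicle and 514 CPM with WT vehicle. In NK cells it went the other way, at 796 with KO vehicle and 985 CPM with WT vehicle. Intervals here cover counting error only.

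The ligands of these receptors were followed in the same cells. Endothelial Vcam1, the ligand of VLA-4, had 217 and 209 CPM with KO LPS and 405 and 377 with WT LPS, against 22.1 with KO vehicle and 18.1 with WT vehicle (log2 4.49 ± 0.10, edgeR adjusted p = 6.49e-11). Endothelial Icam1, the ligand of LFA-1 and Mac-1, had 1979 and 1823 CPM with KO LPS and 2087 and 1999.5 with WT LPS, against 82.1 with KO vehicle and 79.03 with WT vehicle (log2 5.26 ± 0.08, edgeR adjusted p = 5.13e-12). All 4 LPS libraries lay above both vehicle libraries for both ligands. KO LPS libraries had less Vcam1 than WT LPS libraries (-1.04 ± 0.07, edgeR adjusted p = 1.16e-05) and less Icam1 (-0.27 ± 0.06, edgeR adjusted p = 0.0118). Over all types, 16 ligand genes gave 81 tested pairs, of which 33 were higher and 19 lower with LPS, to be read against the 26.8% and 23.5% of all pairs. The selectins and other rolling receptors gave 40 higher and 17 lower of 84, with endothelial Sele, the inducible selectin, at least 70.3-fold higher against a floor of 3 UMIs over the 2 vehicle libraries, which held 0.

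The remaining integrin subunits, 18 genes outside the 8, gave 92 tested pairs, of which 21 (22.8%) were higher and 37 (40.2%) lower with LPS. Of all pairs, 26.8% were higher and 23.5% lower. Itga5, the fibronectin receptor alpha chain and another partner of Itgb1, rose in classical monocytes, neutrophils and alveolar macrophages (2.33 ± 0.12, 1.92 ± 0.20 and 1.13 ± 0.06, log2, edgeR adjusted p at most 1.02e-06). It was lower with KO LPS than with WT LPS in alveolar macrophages and neutrophils (-0.77 ± 0.06 and -0.56 ± 0.08, edgeR adjusted p at most 4.49e-05), the opposite direction to Itga4 in these types. The 30 genes that activate integrins or tie them to actin, among them talin and the kindlins, gave 283 tested pairs. With LPS, 89 (31.4%) were higher and 87 (30.7%) lower, shares a little above those of all pairs. With KO LPS against WT LPS, 44 were higher and 23 lower. Between genotypes, where 7.73% of all pairs were higher and 9.05% lower, the ligands gave 5 higher and 18 lower of 81, the other subunits 10 and 8 of 92 and the rolling receptors 9 and 17 of 84. The median log2 LPS change in endothelial cells was 0.53 for the activation list, 0.14 for ligands, 1.03 for rolling receptors and -0.46 for other subunits, beside -0.02 for all genes. In neutrophils the medians were 0.61, 3.17, 1.44 and 0.71 in the same order, beside 0.46.

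As a description of pattern, each gene was set against all genes reaching 50 CPM in 1 type, over the 22 means of 11 types in vehicle and LPS libraries (Pearson's r of log2(CPM + 1)). The values share libraries and depth and carry no test. The 3 genes most like each were, for Itga4 Akna (0.879), Ttc7 (0.863) and Micu2 (0.861), for Itgb7 Ptpn18 (0.896), Traf3ip3 (0.866) and Madd (0.839), and for Itgae Sept3 (0.840), Xcr1 (0.800) and Clec9a (0.784). Next came, for Itgb1 Raph1 (0.891), Dbndd2 (0.880) and Tmem159 (0.876) and for Itgam Fcer1g (0.877), Metrnl (0.855) and Rab5if (0.841). Those of the LFA-1 chains and CD11c were, for Itgal Itgb2 (0.935), Capza1 (0.896) and Elf4 (0.891), for Itgb2 Itgal (0.935), Cap1 (0.933) and Dock5 (0.920), and for Itgax Sh2d1b1 (0.834), Cd200r4 (0.813) and Galnt3 (0.809). Itgal and Itgb2, the 2 chains of LFA-1, were each other's nearest gene. The list of Itgae held Xcr1 and Clec9a, cDC1 markers that were themselves used to gate the dendritic cells.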

How the data were processed

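Single-cell RNA was measured in 6 libraries of lung cells selected for CD45. The deposited values are raw UMI counts per gene and barcode, 1 matrix a library. The submitters' processing notes name Cell Ranger 6.1.0, Seurat 4.1.0, R 4.1.3 and the mm10 build, and they do not state what each tool did.

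From these counts, barcodes with at least 200 genes and at most 10% mitochondrial UMIs were kept. Each cell was scored on marker lists of 20 types without integrin genes, as the mean over markers of the level relative to the 90th percentile of non-zero values. It took the best type at a score of 0.1 or more with at least 3 markers seen. A cell whose second score passed 50% of the best was left out as mixed, which was the treatment of doublets. UMIs were summed per library and type. Sums were tested with edgeR 4.0.16 in R 4.3.3 (quasi-likelihood test, TMM scaling and filterByExpr within a type), with Benjamini-Hochberg adjustment over all genes of a type and comparison and a threshold of 0.05. All 6 libraries entered each fit with 1 coefficient a group. One further fit over all types gave the response of a type against the mean of the others. The fits were tested on simulated data. Python 3.11.15, numpy 2.4.6, scipy 1.17.1 and pandas 2.3.3 did the rest.

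Alternatives were DESeq2 1.42.0, its size factors, total UMIs, no low-count filter, a stricter gate, mixed cells kept, at most 5% mitochondrial UMIs, free RNA subtracted (the lowest mean of a gene over the types of a library), adjustment over all types, cells of 1 sex mark, 1 genotype alone, a replicate block and each LPS library left out. Mature dendritic cells alone were added after the data were seen. All 8 members were named, ligands and other partners by smallest p, and the 3 most similar genes by correlation. The members and the gene lists were chosen with earlier results of these data known. Intervals and floors cover counting error only.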

Additional observations from a re-analysis of the deposited data

Results flagged for a closer look

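The LPS response differed between genotypes by the edgeR interaction test in 13 pairs of a gene and a type, out of 80. For Itga4 the response in KO minus that in WT was 1.80 in nonclassical monocytes, 1.33 in B cells, 1.28 in alveolar macrophages, 1.08 in T cells, 1.01 in neutrophils and 0.98 in classical monocytes (log2). Itgb1 in classical monocytes gave 0.57 ± 0.12, with responses of 0.39 in KO and -0.17 in WT, and Itgam in the same cells gave 0.45 ± 0.10, with responses of 1.25 in KO and 0.80 in WT. Itgae in dendritic cells gave 2.57 ± 0.32, with responses of -1.09 in KO and -3.66 in WT, where cDC1 numbered 26 and 13 with KO LPS and 4 and 3 with WT LPS, against 72 with KO vehicle and 49 with WT vehicle. The lower values were -0.43 ± 0.10 for Itgb2 and -0.29 ± 0.08 for Itgax in alveolar macrophages and -0.54 ± 0.12 for Itgal and -0.45 ± 0.09 for Itgam in neutrophils. The WT vehicle cells carried Y-linked transcripts and the WT LPS cells Xist, so genotype and sex cannot be told apart in these values. No group had the 4 samples that a test for a library standing apart needs.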

How the results depend on the processing

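Of 3452 values recomputed under an alternative, 3104 kept their direction and their side of the threshold, 222 kept the direction and lost the call, 90 gained one and 36 had the other sign. The LPS calls of 24 higher and 37 lower became 15 higher of 58 fitted in cells with Xist alone and 10 higher and 14 lower of 47 fitted in cells with Y-linked transcripts alone. Scaled by total UMIs they became 12 higher and 51 lower. The KO against WT calls of 21 higher and 6 lower became 12 and 3 with DESeq2 and also 12 and 3 in cells with Xist alone. They became 10 higher with free RNA subtracted, 12 higher under the stricter gate, and 29 higher and 2 lower by total UMIs. The genotype difference calls of 9 higher and 4 lower became 5 higher under the stricter gate, 0 lower with free RNA subtracted, 1 lower by total UMIs and 2 lower with cells that passed a second gate kept. In the finer types, CD8 T cells and neutrophils without the granule-rich ones, 9 lower calls became 6 with DESeq2. The counts of this paragraph show only the dependence on the processing, and no share over all genes is given beside them. Leaving out 1 LPS library at a time gave 18 to 24 higher and 36 to 39 lower LPS calls, 15 to 17 higher and 3 to 7 lower KO against WT calls, and 5 to 10 higher and 3 to 7 lower genotype difference calls. The share of cells with a UMI was above both vehicle libraries in all LPS libraries for 7 of 88 pairs after thinning and 14 without thinning. With free RNA subtracted, the LPS response of Itga4 in endothelial cells (3.93), Itgam in B cells (-3.86), Itgb1 in B cells (-5.13) and Itgb7 in neutrophils (2.91) had the other sign (log2). So did the KO against WT difference under LPS of Itga4 in endothelial cells (-7.86). In each of these pairs the type itself held the lowest mean per cell in some of the groups, so the subtraction left it no UMIs there. These turns follow from the method and give no direction. In mature dendritic cells alone, chosen after the data were seen, the LPS response of Itgae in dendritic cells (3.69), Itgb1 in dendritic cells (-0.30) and Itgb2 in dendritic cells (1.00) had the other sign (log2). So did the genotype difference of the response of Itgae in dendritic cells (-4.18 ± 3.34), which did not pass. Itgae in the mature cells stood at only 13.7 CPM with KO vehicle and 0 with WT vehicle, so its 2 turns give no direction. Scaled by total UMIs, the LPS response of Itgal in dendritic cells (-0.39), Itgal in nonclassical monocytes (-0.0328), Itgam in neutrophils (-0.14), Itgax in alveolar macrophages (-0.11), Itgb1 in alveolar macrophages (-0.00992), Itgb1 in classical monocytes (-0.22), Itgb1 in dendritic cells (-0.13), Itgb1 in endothelial cells (-0.15), Itgb2 in alveolar macrophages (-0.0307) and Itgb2 in neutrophils (-1.01) had the other sign (log2). So did the KO against WT difference under LPS of Itgal in classical monocytes (0.00417), Itgal in neutrophils (0.20), Itgam in neutrophils (0.23) and Itgb2 in neutrophils (0.32). So did the genotype difference of the response of Itgam in neutrophils (0.0753). In cells with Y-linked transcripts alone, the LPS response of Itgal in endothelial cells (-0.23), Itgax in alveolar macrophages (-0.33), Itgb1 in B cells (-0.53) and Itgb2 in alveolar macrophages (-0.00440) had the other sign (log2). In WT libraries alone, the LPS response of Itgal in neutrophils (0.22) had the other sign (log2). In KO libraries alone, the LPS response of Itgb2 in alveolar macrophages (-0.0862) and Itgb2 in neutrophils (-0.0553) had the other sign (log2). In cells with Xist alone, the LPS response of Itgam in B cells (-0.40), Itgb2 in alveolar macrophages (-0.00230) and Itgb2 in neutrophils (-0.0249) had the other sign (log2). So did the KO against WT difference under LPS of Itgam in classical monocytes (-0.14). With cells that passed a second gate kept, the LPS response of Itgax in classical monocytes (-0.76) had the other sign (log2). With the replicate block over the 4 LPS libraries, 23 pairs were higher and 8 lower of 70, against 18 and 7 without the block. The labels do not say what a replicate number marks, and deviations of equal numbers correlated at -0.075 to 0.24 over the types, so the numbers were not treated as pairs. Cells with Y-linked transcripts alone gave no KO against WT value and neither sex gave a genotype difference, since groups were missing. Depth limits stromal cells, dendritic cell subsets and genes under about 3 UMIs in a group, and the causes of these changes were not tested.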

Other observations

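Types with fewer than 30 cells in some library were not tested, and their levels are given as values. The exception was mature dendritic cells, tested above although 1 library held only 24 of them. Platelets, which carry Itgb1 in collagen and fibronectin receptors, numbered 45 and 26 with KO LPS and 28 and 32 with WT LPS, against 6 with KO vehicle and 12 with WT vehicle. Their Itgb1 was at 2277 and 2421 CPM with KO LPS and 1074 and 1718 with WT LPS, against 1486 with KO vehicle and 1886 with WT vehicle. Plasmacytoid dendritic cells, the interferon-producing subset, numbered 26 and 17 with KO LPS and 22 and 19 with WT LPS, against 5 with KO vehicle and 3 with WT vehicle. Their Itga4 was at 543 and 733 CPM with KO LPS and 404 and 533 with WT LPS, against 589 with KO vehicle and 645 with WT vehicle. The 4 LPS libraries and the 2 vehicle libraries overlapped in both. Plasma cells, the antibody-secreting cells, numbered 16 and 7 with KO LPS and 4 and 2 with WT LPS, against 14 with KO vehicle and 2 with WT vehicle. Their Itga4 was at 697 and 596 CPM with KO LPS and 352 and 377 with WT LPS, against 892 with KO vehicle and 408 with WT vehicle. Their Itgb7 was at 207 and 139 CPM with KO LPS and 87.9 and 41.8 with WT LPS, against 127 with KO vehicle and 153 with WT vehicle, so the KO LPS libraries lay above the WT LPS libraries for both genes. Mast cells and basophils held 9 and 7 Itgb7 UMIs with KO LPS and 1 and 4 with WT LPS, against 6 with KO vehicle and 1 with WT vehicle, too few for a level.

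Within T cells, CD4 cells numbered 57 and 32 with KO LPS and 31 and 26 with WT LPS, against 419 with KO vehicle and 266 with WT vehicle, and their Itgb7 was at 158 and 305 CPM with KO LPS and 122 and 72.1 with WT LPS, against 242 with KO vehicle and 187 with WT vehicle. In CD8 T cells the edgeR test gave -1.82 ± 0.23 for Itgb7, -1.43 ± 0.24 for Itgb2 and -1.23 ± 0.24 for Itgb1 with LPS (log2, adjusted p at most 2.79e-05). DESeq2 kept the first and second of these and not Itgb1 (-1.25, DESeq2 adjusted p = 0.0856). Granule-rich young neutrophils, nearly all from LPS libraries, had Itgam at 637 and 634 CPM in KO LPS and 573 and 574 CPM in WT LPS and Itgb1 at 100.1 and 102 CPM in KO LPS and 52.2 and 51.9 CPM in WT LPS. The KO LPS libraries were the higher ones for both in CPM, which is scaled by total UMIs. Over all neutrophils the KO against WT value of Itgam under LPS turned between scales, at -0.12 on the TMM scale and 0.23 by total UMIs (log2), and the young cells were not set on the TMM scale. cDC2, the subset that presents antigen to CD4 cells, numbered 9 and 6 with KO LPS and 3 and 2 with WT LPS, against 11 with KO vehicle and 15 with WT vehicle. Their Itgam was at 214 and 117 CPM with KO LPS and 21.3 and 95.2 with WT LPS, against 263 with KO vehicle and 225 with WT vehicle.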
